A study of Homo sapiens with 8 samples.

Results

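The genes described here are 9 genes of the MHC class I pathway, followed while the H1 line of human embryonic stem cells, an established line, was differentiated in steps into pharyngeal foregut endoderm. They are HLA-B, HLA-C, HLA-E, B2M, TAP1, TAP2, PSMB8, PSMB9 and NLRC5, found by symbol among the 58780 annotated genes of each library's table. The 4 groups were undifferentiated H1 cells, called hESC, then the definitive endoderm made from them, called hDE, then anterior and pharyngeal foregut endoderm, called hAFE and hPFE, with 2 libraries each. RNA was sequenced in pairs after depletion of ribosomal RNA, with the strand marked. The labels mark the hESC and hDE libraries as re-analysed and the hAFE and hPFE libraries carry no such mark, so for hAFE or hPFE against hESC or hDE the stage and the origin of the libraries cannot be told apart. The labels name no agent or time for any stage. Nothing in them tells if both libraries of a stage were grown apart, and the p-values therefore measure only how far these libraries spread, which could be technical.

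MHC class I molecules show peptides from inside the cell to CD8+ T cells and to natural killer cells. A heavy chain (such as HLA-B, HLA-C, or the less polymorphic HLA-E) pairs with the light chain beta-2 microglobulin, encoded by B2M. Peptides are cut by the proteasome, in which the interferon-inducible subunits PSMB8 and PSMB9 can replace constitutive ones, and are pumped into the endoplasmic reticulum by the transporter that TAP1 and TAP2 form together. NLRC5 is a nuclear transactivator of class I, TAP1 and immunoproteasome genes. Pluripotent cells are known for low class I display, and interferon gamma is the classical inducer of the pathway.

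Total expected counts ran from 12687161 to 17802900 per library. Of 10 stage markers, POU5F1, a pluripotency factor, had 858 and 942 CPM (counts relative to the library total, scaled by TMM) in hESC and at most 25.8 CPM in any other library. SOX17 of definitive endoderm had 126 and 149 CPM in hDE and at most 0.433 CPM elsewhere, and PAX1 of pharyngeal endoderm had 26.5 and 17.3 CPM in hPFE and at most 0.658 CPM elsewhere. PAX1 was the one marker called in hPFE against hAFE, and none was called higher in hAFE, so the list does not set hAFE apart by a marker of its own. TBX1, another pharyngeal gene, had 20 and 27 counts in hPFE, against 11 and 82 counts in hAFE, and did not pass (adjusted p = 0.52). SOX2, high in pluripotent cells and in foregut, had 130 CPM in both hESC libraries, at most 1.01 CPM in hDE, 158 and 57.2 CPM in hAFE, and 120 and 95.9 CPM in hPFE.

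Relative to hESC, all 8 genes that could be tested had a log2 fold change below 0 in hDE. The transporter genes TAP1 and TAP2, the immunoproteasome gene PSMB8, the transactivator NLRC5 and the light chain B2M fell there, and the 3 heavy chains, at -0.25 for HLA-B, -0.47 for HLA-C and -0.22 for HLA-E, did not pass the test. Differences between the genes' changes were not tested. In hPFE, B2M stood above both hDE and hESC, and TAP1 and TAP2 stood above hDE and below hESC. PSMB8, PSMB9 and NLRC5 were highest in hESC of the 4 stages. In bulk RNA, fewer cells expressing a gene and less of its RNA per cell cannot be told apart.

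Some markers of other cell types fell in hDE as well. The summed level of 8 endothelial markers was 227 and 226 CPM in hESC, 118 and 133 in hDE, 10.4 and 7.31 in hAFE, and 9.05 and 9.31 in hPFE, with at most 3 of the 8 at 0 in a library. Most of that sum was KDR in hESC and VWF in hDE. VWF had 1.40 ± 0.105 CPM in hESC and 107 ± 12.9 CPM in hDE (SD, n = 2 each). In hDE against hESC 3 of the 6 tested fell (KDR, ERG and TIE1) and VWF rose, where 41.9% of all genes were called. ERG and TIE1 passed the count filter through the hESC libraries, where they are high, so their calls are a description. KDR, a receptor of vascular growth factor, had 198 and 192 CPM in hESC and at most 5.87 CPM in any later library, while PECAM1, a defining endothelial marker, had at most 6 counts in every library. The sum of 10 blood and immune markers was 4.44 and 4.64 CPM in hESC, 1.07 and 1.38 in hDE, 0.264 and 0.292 in hAFE, and 0.243 and 0.938 in hPFE, with 4 to 8 of the 10 at 0. Of these AIF1, a macrophage gene, had 46 and 60 counts in hESC and at most 1 in any later library, and PTPRC, the pan-leukocyte marker, stayed at or below 0.12 CPM. Of 6 tested mesenchyme markers COL1A1 and COL1A2 fell in hDE against hESC, where 21.6% of all genes were called lower. The part of these markers' cells in the hESC values was not tested.

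Of the 9 genes, 8 had enough counts to be tested by edgeR's quasi-likelihood test, and PSMB9 did not. PSMB8 and NLRC5 reached that point through their hESC libraries, so counts of called members are a description and no support. For the same reason no p-value is given for their falls from hESC. In hDE against hESC, 5 of the 8 fell and the other 3 did not pass, where 41.9% of all 17446 genes tested were called in either direction at an adjusted p below 0.05. The median log2 fold change was -1.88 over the 8 genes and -0.0071 over all genes. In hAFE against hDE, 2 rose and 1 fell, where 30.2% of genes were called, with medians of 0.30 over the 8 and 0.012 over all genes. In hPFE against hAFE, all 3 called genes were higher, where 4.77% of all genes were called higher, 2.71% lower and 7.49% in either direction. The medians there were 0.83 over the 8 genes and -0.034 over all.

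Across wider steps, 1 rose and 6 fell in hAFE against hESC, where 39.8% of all genes were called in either direction and 20.6% were called lower. In hPFE against hESC 1 rose and 4 fell, where 45.0% were called, with medians of -1.10 over the 8 genes and 0.016 over all. With limma on log2(TPM + 0.1) and log2(TPM + 1), where 7 of the 9 could be tested, 2 rose and 2 fell there, and the medians were 0.24 and 0.23 over the 7 genes and 0.59 and 0.48 over all genes. In hPFE against hDE all 3 called genes were higher, where 33.6% were called in either direction and 16.6% were called higher. The 6 comparisons share stage libraries and are not independent of each other. The 3 of 8 called in hAFE against hDE and the 3 of 8 in hPFE against hDE are close to the shares over all genes.

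**Figure D1:**
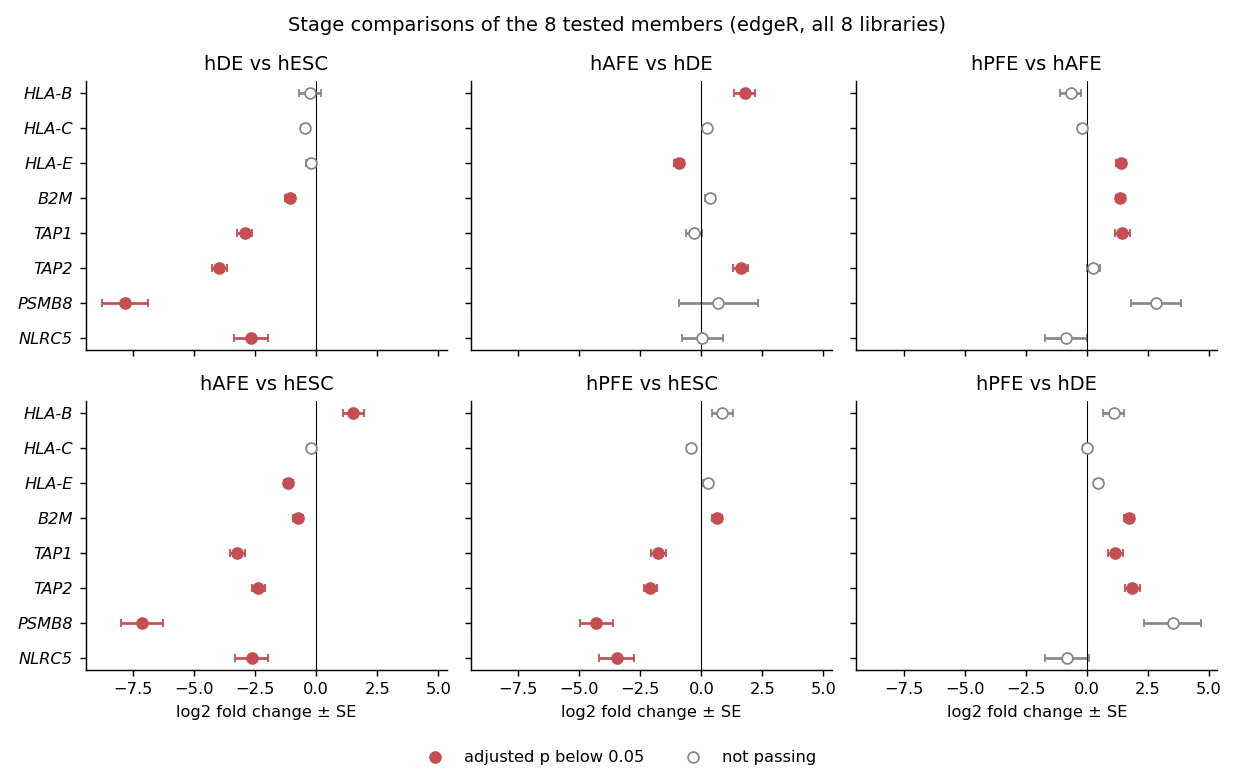
Log2 fold change of the 8 tested genes in the 6 stage comparisons, with bars for ± 1 SE and filled points for an adjusted p below 0.05 (edgeR, all 8 libraries). In hDE vs hESC all 5 filled points lie left of 0, from B2M at -1.09 to PSMB8 at -7.82, and in hPFE vs hAFE the 3 filled points, HLA-E, B2M and TAP1, lie between 1.39 and 1.47. PSMB8 and NLRC5 passed the count filter through their hESC libraries, so their filled points against hESC are a description.

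The promoters of 7 of the 9 genes were found in the RefSeq table (build GRCh38.p14), each window running from 250 bases before to 50 bases after a gene's start. Those of 5 genes are shown because they carry matches to letter patterns of known class I control elements in different combinations. Capitals mark matches, on either strand, to the interferon-stimulated response element (ISRE, GAAANNGAAA), the gamma-activated site (GAS, TTCNNNGAA), the CRE core of the class I X2 box (TGACG), the Y box (CCAAT) and the NF-kB site. They are reference sequence and not read from H1 cells.
HLA-B, chr6:31357130-31357429, minus strand: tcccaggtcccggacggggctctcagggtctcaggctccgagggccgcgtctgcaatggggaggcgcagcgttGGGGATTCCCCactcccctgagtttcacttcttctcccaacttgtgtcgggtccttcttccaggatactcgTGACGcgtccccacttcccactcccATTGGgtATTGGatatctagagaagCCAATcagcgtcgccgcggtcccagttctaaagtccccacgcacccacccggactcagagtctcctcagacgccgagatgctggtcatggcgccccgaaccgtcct
HLA-C, chr6:31272043-31272342, minus strand: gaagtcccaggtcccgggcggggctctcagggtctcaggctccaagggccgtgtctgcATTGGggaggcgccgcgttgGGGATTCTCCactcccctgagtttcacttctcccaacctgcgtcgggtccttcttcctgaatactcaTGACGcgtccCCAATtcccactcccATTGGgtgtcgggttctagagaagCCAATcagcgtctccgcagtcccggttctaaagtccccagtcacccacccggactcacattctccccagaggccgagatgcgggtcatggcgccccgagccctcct
B2M, chr15:44711267-44711566, plus strand: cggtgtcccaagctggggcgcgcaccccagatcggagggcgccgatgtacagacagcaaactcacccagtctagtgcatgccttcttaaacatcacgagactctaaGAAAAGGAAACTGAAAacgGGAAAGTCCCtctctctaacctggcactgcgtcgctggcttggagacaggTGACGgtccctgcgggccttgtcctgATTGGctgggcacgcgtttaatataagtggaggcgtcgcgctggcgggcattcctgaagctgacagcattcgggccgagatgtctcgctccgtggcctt
TAP1, chr6:32853655-32853954, minus strand: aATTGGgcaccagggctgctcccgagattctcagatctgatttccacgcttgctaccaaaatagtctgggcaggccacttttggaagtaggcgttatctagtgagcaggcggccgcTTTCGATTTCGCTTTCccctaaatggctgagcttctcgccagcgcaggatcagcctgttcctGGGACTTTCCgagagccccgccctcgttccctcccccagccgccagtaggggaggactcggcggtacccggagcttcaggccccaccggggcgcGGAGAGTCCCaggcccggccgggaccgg
TAP2, chr6:32838690-32838989, minus strand: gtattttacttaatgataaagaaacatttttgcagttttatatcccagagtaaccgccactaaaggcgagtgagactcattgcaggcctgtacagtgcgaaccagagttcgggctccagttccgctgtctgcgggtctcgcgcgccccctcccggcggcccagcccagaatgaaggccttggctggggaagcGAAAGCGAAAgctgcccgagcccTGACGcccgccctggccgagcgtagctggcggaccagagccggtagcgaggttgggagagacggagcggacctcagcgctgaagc

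The HLA-B and HLA-C windows were alike, with 269 of 304 aligned columns identical (88.5%), whereas HLA-B and B2M shared 49.4%. Both heavy chain windows held the NF-kB site, the CRE core and a Y box downstream of it, and neither held the 10-letter ISRE pattern. B2M held 2 overlapping ISRE matches starting at -144 and -138 from the gene's start, an NF-kB match at -125, a CRE core at -75 and a Y box at -49. The printed TAP1 window held 2 overlapping ISRE matches at -134 and -128, NF-kB matches at -72 and 23 and a Y box at -249, and a second TAP1 window (chr6:32852712-32853011) held a GAS match at -189 and none of the others. TAP2 held an ISRE match at -58 with a CRE core at -35.

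Of the 2 PSMB8 windows, one held an ISRE match at -4 and a GAS match at -65 and the other a CRE core at -69. The PSMB9 window held a CRE core at -144 and a Y box at -243. The RefSeq starts of TAP1 and PSMB9 lie 488 bases apart in opposite directions, so that their windows overlap by 13 bases. Of 35116 RefSeq windows of the same length, 3.57% held the ISRE pattern, 7.66% GAS, 11.3% the NF-kB site, 24.6% the CRE core and 34.6% the Y box. A match is a match of letters and no evidence of binding. The patterns are strict, so a window without a match may still hold a variant of the element, as for the ISRE in the HLA-B and HLA-C windows. Such variants were not searched.

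**Figure D2:**
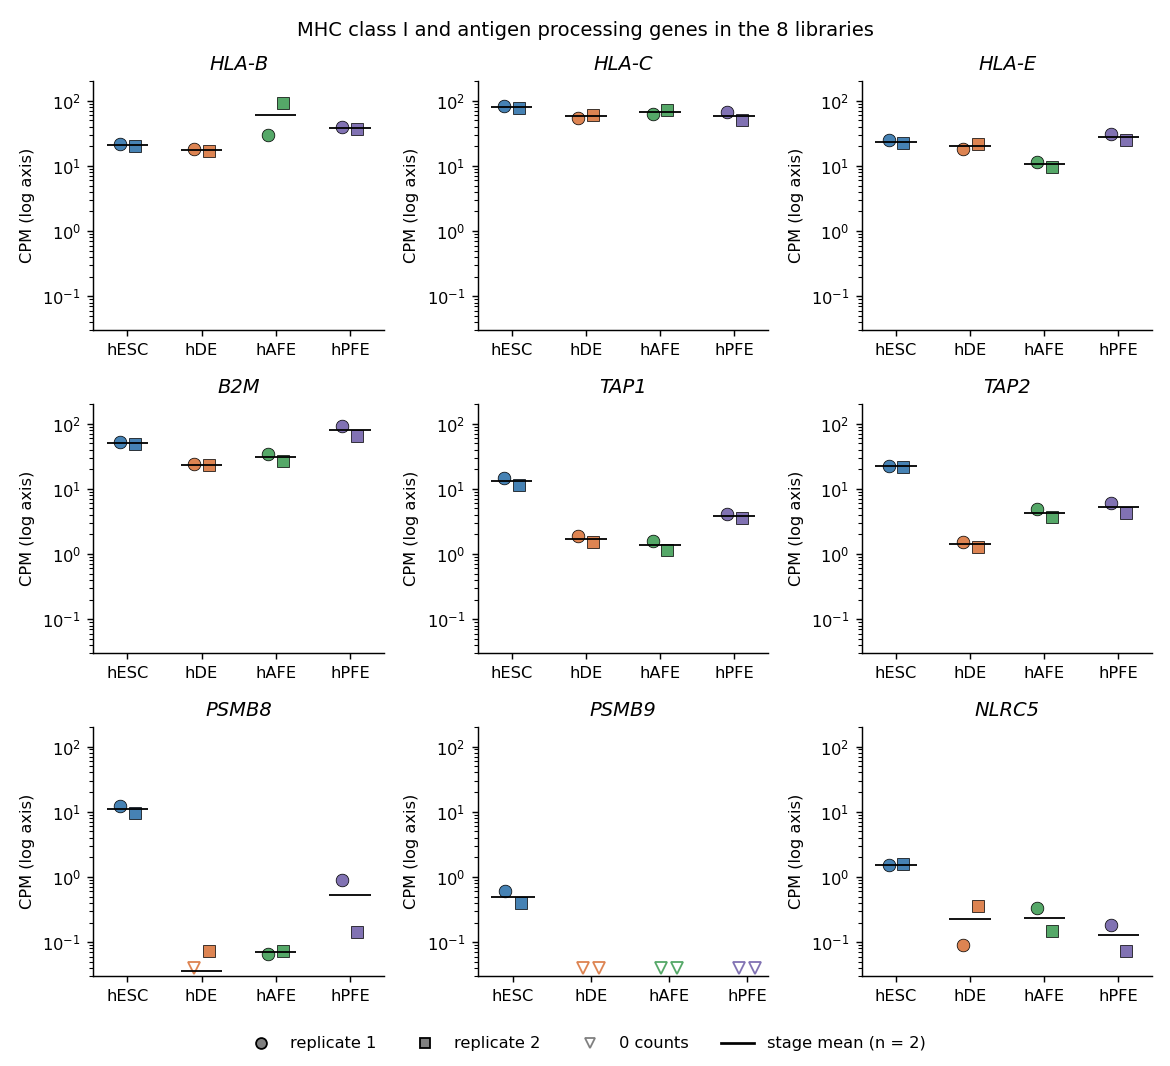
Level of each of the 9 genes in the 8 libraries, in CPM on a log axis, with the stage mean as a line (n = 2 libraries) and an open triangle for 0 counts. HLA-C stays between 50.9 and 81.8 CPM in every library, while PSMB8 stands at 12.2 and 9.61 CPM in hESC and below 1 CPM in the other 6.

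HLA-B, a classical heavy chain that presents peptides to CD8+ T cells (chr6:31269491-31357188, minus strand, GENCODE 29 on hg38), had 21.7 and 20.2 CPM in the hESC libraries, 18.1 and 17.1 in hDE, 29.5 and 90.6 in hAFE, and 39.3 and 36.9 in hPFE. Both hAFE and both hPFE libraries stood above all hESC and hDE libraries, and the second hAFE library was far above the first. HLA-B rose in hAFE against hDE by a log2 fold change of 1.77 (SE 0.44, taken from the F statistic of the test; adjusted p = 0.0197), with 60.0 ± 43.2 CPM in hAFE and 17.6 ± 0.692 in hDE (SD, n = 2 each). Against hESC at 21.0 ± 1.02 CPM the hAFE difference was 1.52 (SE 0.43, adjusted p = 0.0264), but that call was lost without the second hAFE library or any single hESC or hDE library, with effective length offsets, on both TPM scales and with only the 4 libraries compared. The call against hDE was lost without either hDE library and with only the 4 libraries compared.

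The hAFE library with 90.6 CPM of HLA-B also held more trophoblast and amnion marker RNA, summed over 9 genes to 125 CPM against 27.0 CPM in the other hAFE library. CGA, which encodes the alpha chain of the placental gonadotropin, had 69.0 CPM in that library and 4.56 CPM in the other. Over both hAFE libraries ISL1 had 22.5 ± 24.4 CPM (SD, n = 2), ELF5 9.65, TFAP2C 3.93 and KRT7 2.50 CPM. VTCN1 had 10 counts in hAFE, TFAP2A 4, GCM1 1 and GABRP 0. In the hPFE libraries the same sum was 94.0 and 218 CPM, where HLA-B had 39.3 and 36.9 CPM. KRT7 at 87.1 ± 106 CPM and ISL1 at 52.7 ± 26.0 CPM were the highest of the 9 there (SD, n = 2). CGA had 0.0607 and 2.02 CPM in the hPFE libraries, so the sum was carried by other markers than CGA. In hDE the sum was 8.10 and 6.37 CPM, and in hESC 14.0 and 8.88 CPM, with 1 to 5 of the 9 markers at 0 in every library. In hAFE against hDE 4 of the 8 tested markers rose, where 15.0% of all genes were called higher. CGA, among these 4, passed the count filter through the hAFE libraries, where it is high, so its call is a description. The part of these markers' cells in the HLA-B values was not tested. In hPFE, HLA-B did not pass against hAFE (adjusted p = 0.366), hESC (adjusted p = 0.136) or hDE (adjusted p = 0.0844).

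HLA-C, the classical heavy chain that is also the main class I ligand of killer-cell receptors (chr6:31268749-31272130, minus strand), had 81.8 and 77.6 CPM in hESC, 54.2 and 60.8 in hDE, 63.0 and 72.7 in hAFE, and 66.5 and 50.9 in hPFE. The hESC libraries were the highest, and the hPFE range overlapped those of hDE and hAFE. By edgeR it did not pass in any of the 6 comparisons. In hDE against hESC, at 57.5 ± 4.68 against 79.7 ± 2.97 CPM (SD, n = 2 each), the log2 difference was -0.47 (SE 0.16, adjusted p = 0.0503), just outside the threshold, and it passed in 12 of 19 alternative settings. Annotated HLA-B and HLA-C spans overlap on the same strand. The deposited posterior standard deviation of the count was at most 0.00241 of the count for HLA-B and 0.000905 for HLA-C, and how well reads of H1's own alleles map to the reference was not tested.

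HLA-E, the non-classical heavy chain that shows leader peptides of other class I chains to the NKG2A receptor of natural killer cells (chr6:30489467-30494205, plus strand), had 24.7 and 22.3 CPM in hESC, 18.3 and 22.0 in hDE, 11.6 and 9.73 in hAFE, and 31.0 and 25.3 in hPFE. The hAFE libraries were below all others and the hPFE libraries above all others. HLA-E fell in hAFE against hDE with a log2 fold change of -0.92 (SE 0.19, adjusted p = 0.0103), with means of 10.6 ± 1.30 in hAFE and 20.2 ± 2.60 CPM in hDE. This call was lost without the second hDE library and on both TPM scales, where the highest adjusted p by limma was 0.909. In TPM, HLA-E had 2.84 ± 0.325 in hAFE and 2.94 ± 0.573 in hDE (SD, n = 2 each), while the median of all genes rose in TPM by 0.84 on log2(TPM + 0.1).

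In hPFE, HLA-E rose against hAFE by a log2 fold change of 1.40 (SE 0.19, adjusted p = 0.00858), to 28.1 ± 4.08 CPM, against 10.6 ± 1.30 CPM in hAFE. It fell in hAFE against hESC, with -1.14 (SE 0.19, adjusted p = 0.00367), and this call too was lost on both TPM scales (adjusted p = 0.0844 and 0.0948). Between hDE and hESC (adjusted p = 0.385), hPFE and hESC (adjusted p = 0.286), and hPFE and hDE (adjusted p = 0.0878) it did not pass.

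B2M, the light chain that every class I heavy chain needs to reach the surface (chr15:44711487-44718877, plus strand), had 51.6 and 49.0 CPM in hESC, 23.9 and 23.2 in hDE, 34.0 and 26.4 in hAFE, and 93.3 and 64.7 in hPFE. The ranges of the 4 stages did not overlap, and the order from low to high was hDE, hAFE, hESC and hPFE. B2M fell in hDE against hESC with a log2 fold change of -1.09 (SE 0.20, adjusted p = 0.0046), with 23.6 ± 0.430 CPM in hDE and 50.3 ± 1.83 in hESC (SD, n = 2 each). The step to hAFE, at 30.2 ± 5.40 CPM, did not pass against hDE (log2 fold change 0.36, adjusted p = 0.222).

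In hPFE, at 79.0 ± 20.2 CPM, B2M rose against hAFE by a log2 fold change of 1.39 (SE 0.20, adjusted p = 0.01) and against hDE by 1.75 (SE 0.21, adjusted p = 0.000792). Its rise against hESC was smaller, at 0.65 (SE 0.20, adjusted p = 0.0304), and was lost without the first hPFE library or any single hESC or hDE library. In hAFE against hESC it fell, with -0.73 (SE 0.20, adjusted p = 0.0231), which was lost without the second hAFE or either hESC library and on both TPM scales. The hDE against hESC and hPFE against hDE calls held in all 19 alternative settings. The rises of B2M, HLA-E and TAP1 in hPFE against hAFE were lost when only those 4 libraries were fitted (adjusted p = 0.103, 0.0886 and 0.189).

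Markers of mesenchyme moved in the same direction in hPFE. The summed level of 9 mesenchyme and fibroblast markers was 1517 and 265 CPM in hPFE, against 43.1 and 35.1 CPM in hAFE, 27.9 and 24.3 CPM in hDE and 94.9 and 99.7 CPM in hESC, with at most 2 of the 9 at 0 in a library. Of the 6 that could be tested, 4 rose in hPFE against hAFE, where 4.77% of all genes were called higher. LUM, among these 4, passed the count filter through the hPFE libraries, where it is high, so its call is a description. COL3A1, a fibrillar collagen of mesenchyme, had 1232 and 29.7 CPM in the hPFE libraries, where B2M had 93.3 and 64.7, HLA-E 31.0 and 25.3 and TAP1 4.13 and 3.54 CPM. The part of these cells' RNA in the hPFE values was not tested.

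TAP1, one subunit of the peptide transporter (chr6:32845209-32853978, minus strand), had 14.4 and 11.6 CPM in hESC, 1.87 and 1.52 in hDE, 1.59 and 1.17 in hAFE, and 4.13 and 3.54 in hPFE. The hESC libraries were far above the rest, and hDE and hAFE overlapped. TAP1 fell in hDE against hESC with a log2 fold change of -2.94 (SE 0.32, adjusted p = 0.00043), with 1.70 ± 0.246 CPM in hDE and 13.0 ± 2.00 in hESC (SD, n = 2 each). In hAFE, at 1.38 ± 0.294 CPM, it differed from hESC by a log2 fold change of -3.23 (SE 0.32, adjusted p = 0.000452) and did not pass against hDE (adjusted p = 0.544).

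In hPFE, at 3.83 ± 0.419 CPM, TAP1 rose against hAFE by a log2 fold change of 1.47 (SE 0.31, adjusted p = 0.0342) and against hDE by 1.18 (SE 0.31, adjusted p = 0.0229), and fell against hESC by a log2 fold change of -1.76 (SE 0.29, adjusted p = 0.00272). The rise against hAFE was lost without any one library except the second of hPFE and with limma voom. That against hDE was lost without either hDE library, the first hESC library or the first hPFE library, with effective length offsets, with limma voom and with only the 4 libraries compared. The 3 falls against hESC held in all 19 alternative settings.

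TAP2, the partner subunit (chr6:32821833-32838780, minus strand), had 22.7 and 21.8 CPM in hESC, 1.51 and 1.30 in hDE, 4.89 and 3.66 in hAFE, and 6.01 and 4.33 in hPFE. The hDE libraries were the lowest and the hAFE and hPFE libraries overlapped. TAP2 fell in hDE against hESC with a log2 fold change of -3.98 (SE 0.30, adjusted p = 0.000111), 15.7-fold lower, with 1.41 ± 0.148 CPM in hDE and 22.2 ± 0.665 in hESC (SD, n = 2 each). It rose in hAFE against hDE, by a log2 fold change of 1.60 (SE 0.30, adjusted p = 0.00611). TAP1 did not pass there, the difference between the 2 genes' changes was not tested, and the call was lost without the second hDE library and with effective length offsets.

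Against hESC, TAP2 fell in hAFE with a log2 fold change of -2.38 (SE 0.27, adjusted p = 0.000761) and in hPFE with -2.10 (SE 0.27, adjusted p = 0.000947). It rose in hPFE against hDE by a log2 fold change of 1.88 (SE 0.30, adjusted p = 0.00272) and did not pass against hAFE (adjusted p = 0.554). Both falls were lost with effective length offsets and on the TPM scale. The deposited posterior standard deviation of the TAP2 count was at most 0.111 of the count, and was 0 for HLA-E, B2M, TAP1, PSMB8, PSMB9 and NLRC5.

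PSMB8, the immunoproteasome subunit that replaces PSMB5 (chr6:32840717-32844703, minus strand), had 12.2 and 9.61 CPM in hESC, 0 and 0.0724 in hDE, 0.0661 and 0.0731 in hAFE, and 0.911 and 0.144 in hPFE. In counts these were 203 and 170 in hESC, 0 and 1 in hDE, 1 and 1 in hAFE, and 15 and 2 in hPFE, so most of the hPFE signal came from 1 library. The level in hESC was 272-fold that in hDE (exact 95% interval 48.5 to 10773) and 156-fold that in hAFE (43.0 to 1297). These intervals cover counting error only. PSMB8 passed the count filter through the hESC libraries, where it is high, so its calls against hESC are a description and no p-value is given.

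In hPFE against hESC, PSMB8 had a log2 fold change of -4.30 (SE 0.67). The 17 counts in hPFE against 2 in hAFE gave a ratio of 8.07 (exact 95% interval 1.92 to 72.0, adjusted p = 0.131). Against 1 count in hDE the ratio was 14.0 (2.20 to 586.5, adjusted p = 0.0506), and neither passed. PSMB8-AS1, an antisense RNA that overlaps PSMB8 and TAP1 on the opposite strand (chr6:32844086-32846495), had 18 and 14 counts in hESC, 4 and 0 in hPFE and 0 in the other 4 libraries. The sources used here do not say whether counting used the strand, so reads of overlapping antisense partners may not be separated.

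PSMB9, the immunoproteasome subunit that replaces PSMB6 (chr6:32844136-32859585, plus strand), had 10 and 7 counts in hESC and 0 in all 6 later libraries. In CPM the hESC libraries had 0.601 and 0.396. A total of 0 allows 3 counts over the 2 libraries of a stage. With the hESC total of 17 taken as exact, PSMB9 was then at least 4.13-fold lower in hDE than in hESC. The same bound was 4.75-fold in hAFE and 5.01-fold in hPFE. Counting error of the 17 hESC counts is not in these bounds and would lower them. The annotated span of PSMB9 covers that of TAP1 on the opposite strand. The 40 counts of TAP1 in hAFE and 117 in hPFE were accompanied by 0 counts of PSMB9.

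NLRC5, the class I transactivator (chr16:56989485-57083531, plus strand), was scarce at every stage. It had 1.50 and 1.58 CPM in hESC, 0.0890 and 0.362 in hDE, 0.330 and 0.146 in hAFE, and 0.182 and 0.0722 in hPFE. The hESC libraries stood above all others, and the 3 later stages overlapped. Against hESC, NLRC5 had a log2 fold change of -2.67 in hDE (SE 0.69), -2.63 in hAFE (SE 0.67) and -3.48 in hPFE (SE 0.73). It passed the count filter through the hESC libraries, where it is high, so its calls against hESC are a description and no p-value is given. Only 4 to 7 counts remained per later stage, against 53 in hESC. The hDE and hAFE calls were lost with DESeq2, with effective length offsets and without either hESC library, and also without the first hDE library for the one and the second hAFE library for the other. The hPFE call was lost without the second hESC library.

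Between genes, levels were compared within a library as TPM, a share of transcripts that allows for gene length. In hESC the order of TPM was B2M at 31.4 ± 0.841, HLA-C at 28.3 ± 0.834, HLA-B at 16.9 ± 1.36, PSMB8 at 4.99 ± 0.615 and HLA-E at 4.54 ± 0.240 (SD, n = 2). TAP1 at 2.91 ± 0.212, TAP2 at 2.65 ± 0.530, NLRC5 at 0.530 ± 0.127 and PSMB9 at 0.440 ± 0.170 followed. PSMB8 and HLA-E, TAP1 and TAP2, and NLRC5 and PSMB9 did not differ beyond their spread. In hPFE B2M led at 73.4 ± 0.771 TPM, followed by HLA-B at 43.9 ± 13.1 and HLA-C at 33.7 ± 6.68, which did not differ beyond their spread.

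Set against each other per length, HLA-B held a larger share in the hAFE and hPFE libraries than in the hESC and hDE libraries. It held 36.6% and 38.3% of the summed TPM of both genes in hESC, 32.2% and 43.5% in hDE, 48.3% and 71.7% in hAFE, and 54.4% and 58.0% in hPFE. This pattern was read in TPM, and in CPM, which does not allow for length, HLA-C stood above HLA-B in 7 of 8 libraries. HLA-B had 6.0 and 11.8 TPM in the hDE libraries at 18.1 and 17.1 CPM. Reads of close class I genes may be split between them, and these shares were not tested. The ratio of B2M TPM to that sum was 0.706 and 0.685 in hESC, 0.529 and 0.380 in hDE, 0.480 and 0.179 in hAFE, and 1.16 and 0.795 in hPFE, so that both hPFE libraries stood above the other 6.

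**Figure D3:**
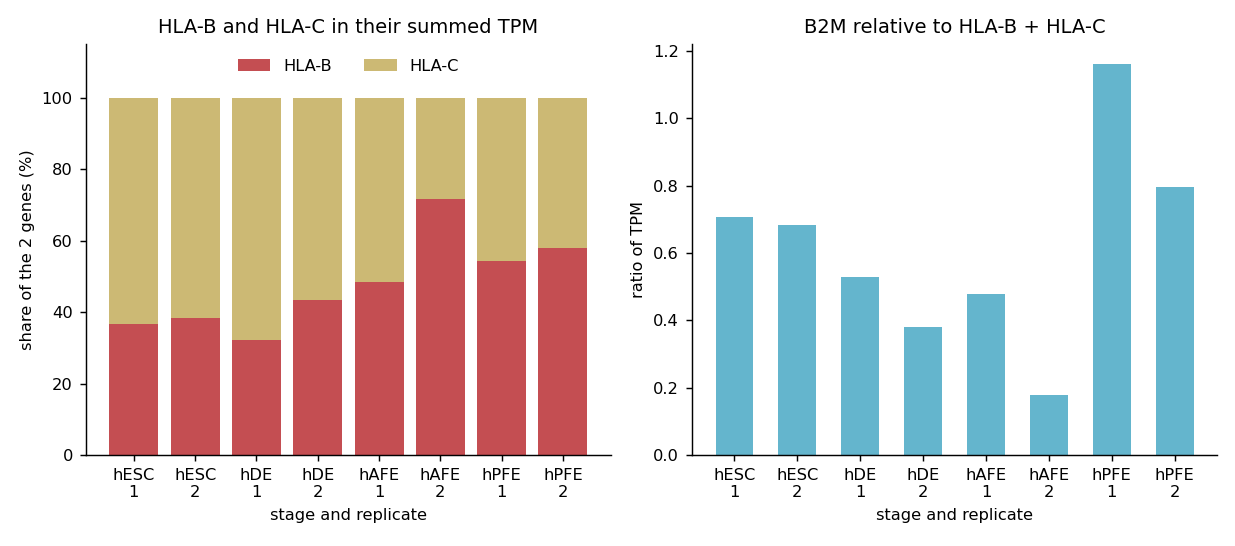
Left, share of HLA-B and HLA-C in the summed TPM of both genes in each library (%). Right, ratio of B2M TPM to that sum: HLA-B holds 54.4% and 58.0% in the hPFE libraries, against 36.6% and 38.3% in the hESC libraries, and the B2M ratio is 1.16 and 0.795 in hPFE.

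The non-classical heavy chains HLA-F and HLA-G had few counts in hESC and fewer in every later library. HLA-G, the chain of the placental trophoblast, had 34 and 29 counts in hESC, 0 and 2 in hDE, 0 and 1 in hAFE and 0 in both hPFE libraries. With its hESC total taken as exact, it was at least 18.6-fold lower in hPFE than in hESC. HLA-F had 37 and 51 counts in hESC, 4 and 3 in hDE, 1 and 0 in hAFE, and 2 and 0 in hPFE. Both genes passed the count filter through the hESC libraries, where they are high, so no test is given for them.

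The constitutive catalytic genes of the proteasome stood above the inducible ones in TPM at every stage. PSMB5, PSMB6 and PSMB7 encode the catalytic subunits of the standard particle. PSMB5 had 119 and 132 CPM in hESC, 99.1 and 98.4 in hDE, 90.9 and 76.9 in hAFE, and 68.7 and 57.2 in hPFE. In hPFE against hESC the log2 fold change was -0.99 for PSMB5 (adjusted p = 0.0019) and -1.11 for PSMB6 (adjusted p = 0.0012). With PSME3, a nuclear activator of the particle, all 4 genes of that list fell in hPFE against hESC, with a median of -0.90. Of all genes 45.0% were called there and 23.3% were called lower. In TPM, PSMB7 had 54.0 ± 6.29 in hESC and 55.7 ± 17.8 in hPFE (SD, n = 2 each). PSMB5 had 65.3 and 53.4, PSMB6 53.4 and 37.6, and PSME3 35.8 and 29.2 TPM in the same order. The median of all genes rose there by 0.59 on log2(TPM + 0.1).

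PSMB10, the third inducible subunit, had 6.79 and 7.86 CPM in hESC, 1.51 and 2.82 in hDE, 2.44 and 2.19 in hAFE, and 2.55 and 1.37 in hPFE, and fell in hPFE against hESC with a log2 fold change of -1.89 (adjusted p = 0.0091). It remained present where PSMB8 and PSMB9 were at or near 0. Together PSMB8, PSMB9 and PSMB10 held 7.74% and 6.86% of the TPM of the 6 catalytic genes in hESC, 1.23% and 2.22% in hDE, 1.95% and 1.87% in hAFE, and 2.69% and 1.44% in hPFE. The hESC libraries were above the other 6.

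PSME1 and PSME2 encode the interferon-inducible activator PA28. In hDE both fell against hESC, PSME1 to 15.5 and 12.2 CPM in hDE against 34.6 and 30.8 in hESC (adjusted p = 0.0099) and PSME2 to 29.9 and 24.4 against 48.7 and 51.2 (adjusted p = 0.0078). In hPFE, PSME1 at 41.5 and 29.4 CPM did not pass against hESC (adjusted p = 0.75), and PSME2 at 33.3 and 24.2 CPM fell against hESC with a log2 fold change of -0.80 (adjusted p = 0.011).

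**Figure D4:**
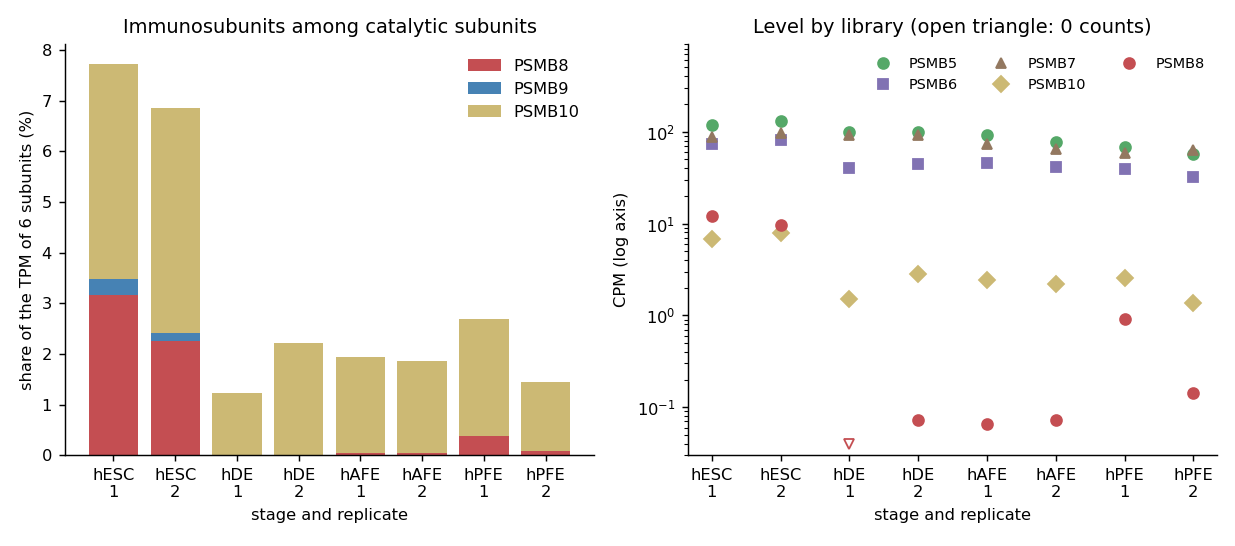
Left, share of the inducible subunits PSMB8, PSMB9 and PSMB10 in the summed TPM of the 6 catalytic genes (%), by library. Right, CPM of PSMB5, PSMB6, PSMB7, PSMB10 and PSMB8 on a log axis: the hESC libraries reach 7.74% and 6.86%, and PSMB8 is below 1 CPM in the other 6 libraries.

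Among 8 genes of peptide loading and trimming, 6 could be tested. In hDE against hESC 1 rose and 1 fell, in hAFE against hDE 3 fell, and in hPFE against hAFE 2 rose. Of all genes 41.9%, 30.2% and 7.49% were called in these comparisons. The list's median log2 fold change was -0.19 in hDE against hESC and 0.21 in hPFE against hAFE. TAPBP (tapasin, which ties class I to the transporter) and ERAP1 (an aminopeptidase that trims peptides) are given because of their values. TAPBP had 17.6 and 13.2 CPM in hESC, 0.534 and 0.217 in hDE, 1.32 and 0.439 in hAFE, and 8.13 and 3.32 in hPFE. Its log2 fold change was -5.37 in hDE against hESC (adjusted p = 0.0011) and 2.68 in hPFE against hAFE (adjusted p = 0.042).

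ERAP1 had its low point later. It had 24.6 and 24.3 CPM in hESC, 22.8 and 18.0 in hDE, 9.65 and 7.90 in hAFE, and 37.4 and 26.3 in hPFE. Its log2 fold change was -1.21 in hAFE against hDE (adjusted p = 0.0065) and 1.86 in hPFE against hAFE (adjusted p = 0.006). CANX (calnexin, a chaperone of new heavy chains) was the best expressed gene of the list that did not pass in hPFE against hESC, with 710 and 631 CPM in hPFE and 767 and 931 CPM in hESC.

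Factors that assemble on class I promoters were also examined. Of 10 genes for RFX, NF-Y, CREB1, ATF1 and NF-kB factors, 1 rose and 2 fell in hDE against hESC, and 2 rose and 1 fell in hPFE against hESC. Of all genes 41.9% and 45.0% were called in these comparisons, and the list's medians were -0.29 and 0.08. NFKB1, an NF-kB subunit, had 7.09 and 6.95 CPM in hESC, 7.83 and 5.72 in hDE, 12.2 and 10.9 in hAFE, and 17.1 and 17.5 in hPFE. It rose in hPFE against hESC by a log2 fold change of 1.30 (adjusted p = 0.003). RELA, its usual partner, rose by 1.12 (adjusted p = 0.0039), with 21.9 and 26.0 CPM in hPFE and 11.7 and 10.3 CPM in hESC. CREB1 did not pass (adjusted p = 0.15).

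Interferon receptors and signalling genes were expressed at all 4 stages. Of 15, 6 rose and 1 fell in hDE against hESC, where 41.9% of all genes were called, with a median of 0.12. In hAFE, 1 rose and 3 fell against hDE (median -0.38, 30.2% of all genes called) and 2 rose and 4 fell against hESC (median 0.13, 39.8% called). In hPFE, 3 rose against hAFE, where 7.49% were called, and 7 rose and 2 fell against hESC, where 45.0% were called, with medians of 0.28 and 0.48. IFNAR1, a chain of the type I interferon receptor, had 7.87 and 8.88 CPM in hESC, 13.3 and 11.4 in hDE, 15.2 and 17.6 in hAFE, and 23.1 and 24.8 in hPFE. In hPFE against hESC it rose by a log2 fold change of 1.52 (adjusted p = 0.00088), while SOCS1, an inhibitor of the pathway, fell, with -2.30 (adjusted p = 0.014). SOCS3, another inhibitor, had 33.6 and 13.1 CPM in hPFE and 19.8 and 22.1 CPM in hESC and did not pass (adjusted p = 0.77).

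Of 22 interferon-stimulated genes, 15 could be tested. Against hESC, 3 rose and 6 fell in hDE (median 0.37, 41.9% of all genes called), 1 rose and 9 fell in hAFE (median -1.57, 39.8% called), and 1 rose and 6 fell in hPFE (median -0.79, 45.0% called). TRIM22, an antiviral ubiquitin ligase, had 47.4 and 32.1 CPM in hESC, 0 and 0.0724 in hDE, 0.330 and 0.292 in hAFE, and 3.16 and 2.45 in hPFE. TRIM22 fell in hPFE against hESC with a log2 fold change of -3.82 (adjusted p = 0.00021). GBP1, a guanylate-binding protein, had 33 and 16 counts in hPFE and 1 and 0 in hESC. It passed the count filter through the hPFE libraries, where it is high, so its call is a description and no p-value is given. DDX58, a sensor of viral RNA, had 9.17 and 8.15 CPM in hPFE and 13.2 and 13.1 CPM in hESC and did not pass (adjusted p = 0.053).

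MHC class II genes, which present peptides from outside the cell in professional antigen-presenting cells, stood below HLA-B, HLA-C and B2M in hESC in TPM. The highest of the list, CD74 and HLA-DPB1, had 7.61 and 6.72 TPM there, against 16.9 for HLA-B and 4.54 for HLA-E. The rest of the list had at most 1.66 TPM in hESC, and HLA-DQA1 had 0 counts. CD74, the invariant chain, had 19.7 and 18.1 CPM in hESC, 0.623 and 0.869 in hDE, 3.90 and 2.12 in hAFE, and 8.26 and 6.78 in hPFE. It fell in hDE against hESC with a log2 fold change of -4.63 (adjusted p = 0.00016) and rose in hPFE against hDE by 3.31 (adjusted p = 0.00073). HLA-DPB1, a class II beta chain, had 11.7 and 9.89 CPM in hESC, 3.65 and 3.91 in hDE, 6.74 and 4.02 in hAFE, and 4.67 and 2.89 in hPFE. Both are given because of their values. Of 10, 7 could be tested, and 5 fell both in hDE against hESC and in hPFE against hESC, with medians of -1.82 and -1.37, where 41.9% and 45.0% of all genes were called. HLA-DRA had 62 and 61 counts in hESC, 0 and 3 in hDE, 0 and 1 in hAFE, and 1 and 0 in hPFE. It passed the count filter through the hESC libraries, where it is high, so its calls are a description. HLA-DRB1 had 60 and 65 counts in hESC and at most 17 in any later library. HLA-DMA, with 2.04 ± 0.0309 CPM in hPFE and 2.89 ± 0.330 CPM in hESC, did not pass (adjusted p = 0.4).

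Of 4 class I-like proteins that also pair with B2M, 3 could be tested, and 1 fell in hPFE against hESC, with a median of -0.09. Of all genes 23.3% were called lower there. CD1D, which presents lipids, had 39 and 31 counts in hESC, 2 and 2 in hDE, 0 and 1 in hAFE, and 3 and 1 in hPFE. It passed the count filter through hESC, where it is high, so its call is a description and no p-value is given. FCGRT, the neonatal Fc receptor, did not pass (adjusted p = 0.36), with 12.4 and 7.14 CPM in hPFE and 8.53 and 6.56 CPM in hESC. HFE, a regulator of iron uptake given because of its values, had 2.91 and 1.37 CPM in hPFE, against 0.132 and 0.146 in hAFE, and rose by a log2 fold change of 3.87 (adjusted p = 0.013).

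Of 10 ligands that natural killer or T cells read, 8 could be tested, and 4 rose and 1 fell in hPFE against hESC, with a median of 0.85. Of all genes 45.0% were called there, 21.6% higher and 23.3% lower. MICB, a stress ligand of the receptor NKG2D, had 12.6 and 10.9 CPM in hESC, 2.67 and 4.85 in hDE, 2.51 and 3.73 in hAFE, and 2.61 and 1.73 in hPFE. It fell in hPFE against hESC with a log2 fold change of -2.42 (adjusted p = 0.0026). Its relative MICA did not pass, with 8.38 and 4.40 CPM in hPFE and 8.23 and 9.61 CPM in hESC (adjusted p = 0.37). CD274, which encodes the checkpoint ligand PD-L1, had 15 and 9 counts in hPFE and 5 and 3 in hESC. It passed the count filter through hPFE, where it is high, so its call is a description and no p-value is given.

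**Figure D5:**
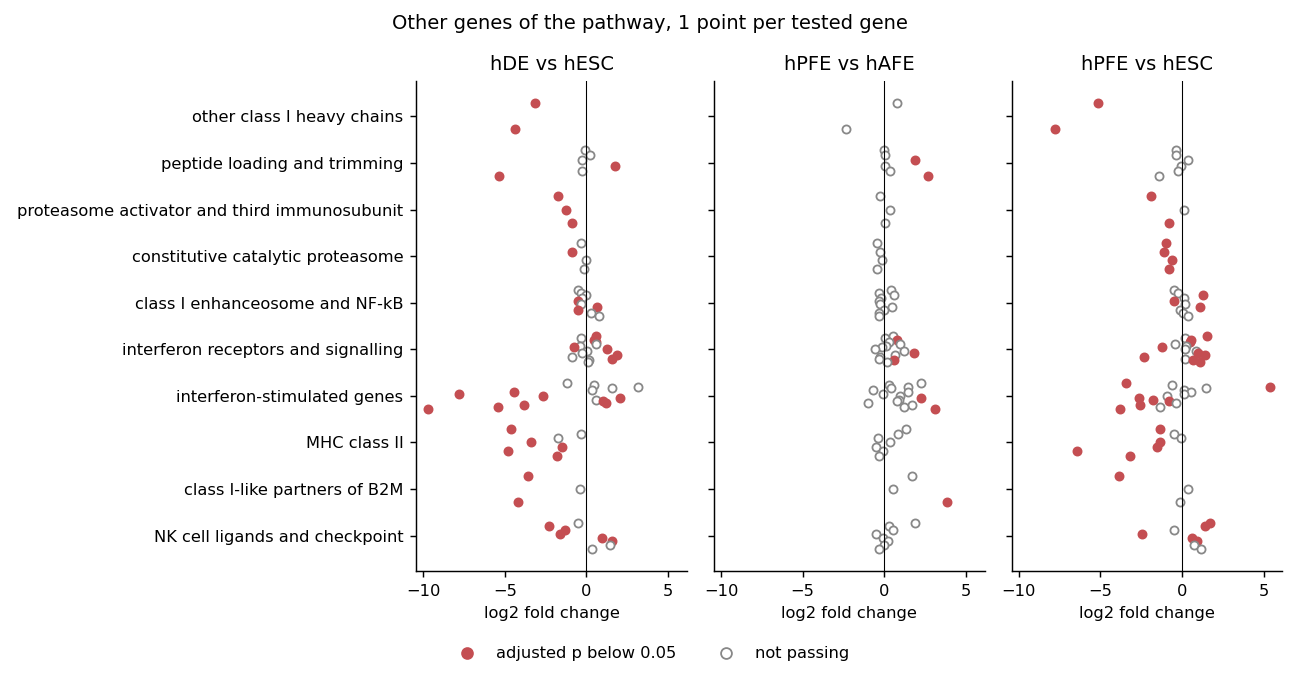
Log2 fold change of every tested gene in 10 other lists of the pathway, in hDE vs hESC, hPFE vs hAFE and hPFE vs hESC, 1 point per gene, filled where the adjusted p was below 0.05. The inducible proteasome list has 3 filled points left of 0 in hDE vs hESC, and in hPFE vs hESC all 4 points of the constitutive proteasome list are filled and left of 0, with a median of -0.90.

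The distance between the genes' patterns was taken as the root mean square difference of centred log2 CPM over the 8 libraries. Among the 8 tested genes HLA-E and B2M were nearest to each other at 0.521, followed by HLA-C and HLA-E at 0.597 and TAP1 and TAP2 at 0.651. HLA-B and PSMB8 were farthest apart at 2.76. In all, 11130 genes, members included, reached a stage mean of 10 CPM. Of the non-members among them, those near the mean pattern of the 8 included PFKP at 0.171, FKBP1B at 0.182, PLEKHG6 at 0.202 and ACSS2 at 0.233.

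The genes near HLA-E alone included LGMN at 0.139 and CHPF at 0.206. LGMN, a lysosomal protease, had stage means of 47.9 (hESC), 41.2 (hDE), 23.7 (hAFE) and 56.0 CPM (hPFE), with the same low point in hAFE as HLA-E. Nearest to B2M were PTPN3 at 0.142, ATP1B1 at 0.163 and SEL1L3 at 0.214. ATP1B1, a subunit of the sodium pump, had stage means of 34.8 (hESC), 20.3 (hDE), 24.9 (hAFE) and 55.2 CPM (hPFE). These distances are descriptions over 8 libraries in 4 stages and have no test.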

How the data were processed

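RNA-seq of 8 libraries was used, 2 per stage. The authors' gene tables came from RSEM on hg38, per the submitters' processing notes, and DESeq2 is named there too. For the aligner, nothing is stated: it was not given in the sources used here. As deposited, the expected counts divide reads shared by several genes among them. The deposited TPM values allow for effective length. Other columns of the deposited tables, the effective length and the posterior standard deviation of the count, served in an alternative and as a value per gene. Of 59526 rows, 58780 matched GENCODE 29, and the other 746 named no gene and held 0 counts.

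Counts were rounded, filtered (filterByExpr, 17446 genes) and fitted over all 8 libraries with a term per stage and 4 residual degrees of freedom, by the quasi-likelihood test of edgeR 4.0.16 (R 4.3.3) with TMM scaling. Adjusted p-values (Benjamini-Hochberg) cover all genes tested, with a threshold of 0.05. The SE is the absolute log2 fold change over the square root of the F statistic. A total of 0 was read as at most 3 counts over a stage's 2 libraries, with the other stage's total taken as exact. That floor and the exact binomial intervals allow for counting error alone, because PCR copies without identifiers are not independent molecules. Same-numbered libraries of 2 stages deviated from their stage means with correlations of -0.04 to 0.06, so the numbers were not used as pairs.

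The alternatives tried were DESeq2 1.42.0, limma voom with a weight per stage, limma 3.58.1 on log2(TPM + 1) and log2(TPM + 0.1), RLE scaling, effective length offsets, a filter of 1 CPM in 2 libraries or none, a replicate block, a fit of the 4 libraries compared alone, and fits without abundant structural RNA or without each library in turn. The members and gene lists were chosen with earlier results of these data known. Some called genes in the other lists passed the count filter only through a stage where they are high. The counts of called genes in those lists are therefore a description. From each other list the text names the 2 called genes with the largest change in hPFE against hESC and the best expressed that did not pass, and says where a gene was picked after its values were seen. Genes alike in pattern had to reach a stage mean of 10 CPM. Some genes that these rules or lists would name are not reported here.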

Additional observations from a re-analysis of the deposited data

How the results depend on the processing

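Over single genes and settings, 769 values kept their direction and their side of the threshold, 64 lost the call, 45 gained one and 16 changed direction. Of the 9 genes, the number called changed by over 1.5 times as follows. In hAFE against hESC it was 4 with effective length offsets and 2 with limma on log2(TPM + 0.1) or log2(TPM + 1), against 7. In hPFE against hAFE it was 5 without a count filter and 0 with only the 4 libraries compared, where edgeR gave 3 at an unadjusted p below 0.05 and DESeq2 on all libraries called 3. In hPFE against hDE it was 7 on log2(TPM + 0.1), 6 on log2(TPM + 1) and 5 without a count filter, against 3.

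Leaving out 1 library gave 4 to 6 called genes in hDE against hESC, 0 to 3 in hAFE against hDE, 2 to 4 in hPFE against hAFE, 4 to 7 in hAFE against hESC, 3 to 6 in hPFE against hESC and 2 to 4 in hPFE against hDE. The 0 arose without the second hDE library, where edgeR gave 3 at an unadjusted p below 0.05. The low counts of 4 in hAFE against hESC arose without the second hAFE or either hESC library, and the 3 in hPFE against hESC without the second hESC library. The lone library is assumed to vary like the others. Over all genes, calls ran from 3695 to 8465 in hDE against hESC, 2435 to 6363 in hAFE against hDE, 479 to 1552 in hPFE against hAFE, 2899 to 8178 in hAFE against hESC, 3822 to 8422 in hPFE against hESC and 2630 to 6468 in hPFE against hDE.

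Other settings also moved the count over all genes by over 1.5 times. In hPFE against hAFE, where 1306 genes were called, it was 656 on log2(TPM + 0.1), 764 on log2(TPM + 1), 447 with limma voom, 3234 without a count filter and 52 with only the 4 libraries. In hDE against hESC it was 4817 on log2(TPM + 1), against 7304. In hAFE against hESC it was 3952 on log2(TPM + 0.1) and 3665 on log2(TPM + 1), against 6938. In hPFE against hDE it was 9627 and 9377 on those scales, against 5867. TPM moved the median of all genes, in hPFE against hDE to 1.06 on log2(TPM + 0.1) and 0.83 on log2(TPM + 1).

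The values that changed direction had not passed the test, and for those on the TPM scale the median of all genes moved too; otherwise the cause was not tested. On log2(TPM + 0.1) and log2(TPM + 1), TAP1 in hAFE against hDE was 0.35 and 0.11, and HLA-C was 0.054 and 0.052 in hAFE against hESC, 0.19 and 0.18 in hPFE against hAFE, and 0.24 and 0.23 in hPFE against hESC. NLRC5 in hAFE against hDE was -0.54 with effective length offsets. Without 1 library the log2 fold change ran from -0.66 to 1.36 for NLRC5 in hAFE against hDE, negative without the first hAFE or first hDE library, and from -1.60 to 0.54 for NLRC5 in hPFE against hDE, positive without the second hDE library. It ran from -0.057 to 3.21 for PSMB8 in hAFE against hDE, negative without the first hDE library, from -1.26 to 0.36 for HLA-B in hPFE against hAFE, positive without the second hAFE library, and from -0.18 to 0.20 for HLA-C in hPFE against hDE, negative without the first hDE or first hPFE library.

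The labels' replicate numbers do not pair the libraries. With the replicate block the number of called genes among the 9 was 5 in hDE against hESC, 3 in hAFE against hDE, 3 in hPFE against hAFE, 7 in hAFE against hESC, 5 in hPFE against hESC and 3 in hPFE against hDE, as without it, and over all genes 6909, 4941, 1072, 6471, 7494 and 5493 in the same order.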
